A study of Mus musculus with 8 samples.

Results

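The genes described here are the matrix metalloproteinases (MMPs), the membrane-bound ADAM proteases, the secreted ADAMTS proteases and the tissue inhibitors of metalloproteinases (TIMPs) of a mouse Leydig tumour cell line. They were chosen as the protein-coding genes whose symbol begins with Mmp, Adam, Adamts or Timp followed by a digit, and they are 78 of the 54532 genes in the count table. The set holds 22 MMP, 33 ADAM, 19 ADAMTS and 4 TIMP genes, and the rule that defines it uses no measured value. Mmp1a is not among them because the table lists it as a polymorphic pseudogene.
RNA was sequenced from MA-10 cells, a Leydig tumour line that makes progesterone, in 4 libraries of wild-type cells (WT) and 4 libraries of cells edited in Mttp (KO). Mttp encodes the lipid-transferring subunit of microsomal triglyceride transfer protein (MTP), and the study asked how its loss alters the cells. All 8 libraries, WT included, came from 48 h cultures given 0.5 mM 8-BrcAMP, a cell-permeable analog of cAMP, for 3 h, so every level below is a stimulated level. KO cells were made by electroporating Cas9 with a pair of guides against Mttp and were grown from single cells. The sources used here do not name the clone that was sequenced, and what the edit did cannot be told apart from what clonal growth did. The genotype field of the labels names the wild type for every library, so the groups rest on the library titles. The study describes the libraries as biological replicates and the cells as plated in triplicate. It does not state whether each library came from a separate culture. Each p-value sets the difference between the groups against the spread between these libraries.
MMPs are zinc proteases made as inactive precursors. Most are secreted and some are anchored in the membrane, and together they cut collagens, laminins, elastin and proteoglycans. ADAMs sit in the plasma membrane, where the active members release the outer parts of growth factor precursors, cytokine receptors and Notch, while ADAMTS proteases are secreted and cut large proteoglycans or trim procollagens. TIMPs block the active site of MMPs, and TIMP3 also blocks several ADAM and ADAMTS proteases. In the testis many ADAMs belong to germ cells, where they act on sperm, while Leydig cells lie in the interstitial matrix that MMPs and ADAMTS proteases remodel.
The libraries held 15075610 to 16321292 counts in WT and 14927989 to 18394797 in KO cells, and the biological coefficient of variation between replicates was 7.11%. Mttp had 11.9 to 14.4 CPM (counts per 1000000 of the TMM-scaled library size) in WT and 4.52 to 7.13 CPM in KO libraries, which is the direction its labels give. The Leydig markers were present, with a summed level of 9534 to 10723 CPM in WT against 10453 to 11642 CPM in KO libraries, and 6 of 9 rose and 0 fell (edgeR's quasi-likelihood test, 0 also at an unadjusted p below 0.05 and with DESeq2 or limma voom, and 1 fell after centring on chromosome medians). Genes of chromosome 19 were higher in KO cells as a group (median log2 fold change 0.51) and those of chromosome 3 lower (-0.22). Of the tested protease and inhibitor genes 1, Adam15, lies on these chromosomes. Mitochondrially encoded genes took 3.65 to 4.80% of counts in WT and 4.92 to 6.16% in KO libraries.

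Of the 78 genes, 57 had at least 1 count, 21 had 0 in all 8 libraries and 28 had enough counts to be tested. A gene was called at an adjusted p below 0.05 by edgeR's quasi-likelihood test over all 13185 tested genes, and rose and fell below refer to such calls. In KO cells 4 of the 28 genes rose and 14 fell, while 10 were not called. Of all tested genes 21.7% rose and 21.1% fell, against 14.3% and 50% of these genes. With a log2 fold change above 0.5 in either direction as well, 3 rose and 7 fell, against 7.35% and 8.44% of all tested genes. The WT and KO libraries did not overlap for 4 genes that were higher and 13 that were lower in KO cells, against 19.7% and 18.9% of all tested genes. The median log2 fold change was -0.18 over the 28 genes and -0.0019 over all tested genes. By family the median was -0.12 over 9 MMP genes, -0.21 over 8 ADAM genes, -0.39 over 7 ADAMTS genes and -0.36 over 4 TIMP genes.

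**Figure D1:**
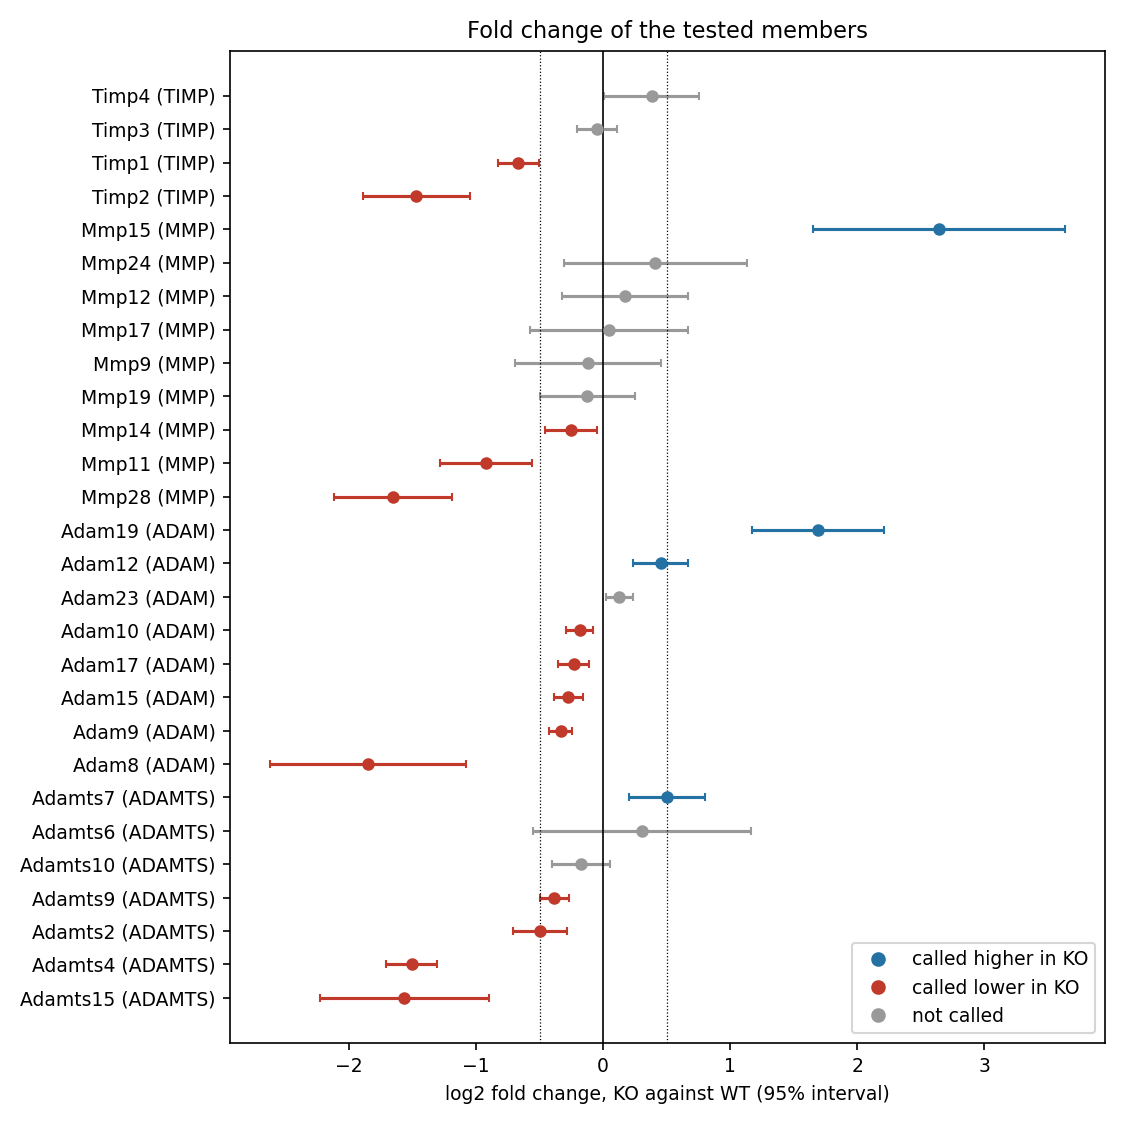
Log2 fold change of KO against WT for the 28 tested genes, grouped by family, with bars for the 95% interval and dotted lines at 0.5 in both directions. Mmp15 (2.65) and Adam19 (1.69) lie farthest to the right and Adam8 (-1.85) farthest to the left, and most ADAM genes of high level lie between -0.33 and -0.18.

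Among the tested genes, levels spanned 395.9-fold per kilobase of gene length, from Timp1 at the top to Adamts6 at the bottom. In WT cells Timp1 came first with 37.1 to 41.0 CPM per kilobase, followed by Adam9 with 31.1 to 31.5, Adam10 with 27.2 to 30.3 and Timp3 with 12.9 to 17.0, and the ranges of these 4 genes did not overlap. In KO cells Timp1 had 21.2 to 26.9 CPM per kilobase, Adam9 24.4 to 25.2 and Adam10 23.9 to 26.1, so the order of these 3 genes lay within their spread. Adam17, Adamts9 and Adam15 came next in both groups. The ranges of neighbours in the order overlapped in 17 of 27 pairs in WT and in 17 in KO cells, most of them in the lower part of the order. Adam9 and Adam10 together made up 53.2 to 56.3% of the summed protease level per kilobase in WT and 54.0 to 55.9% in KO cells.

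**Figure D2:**
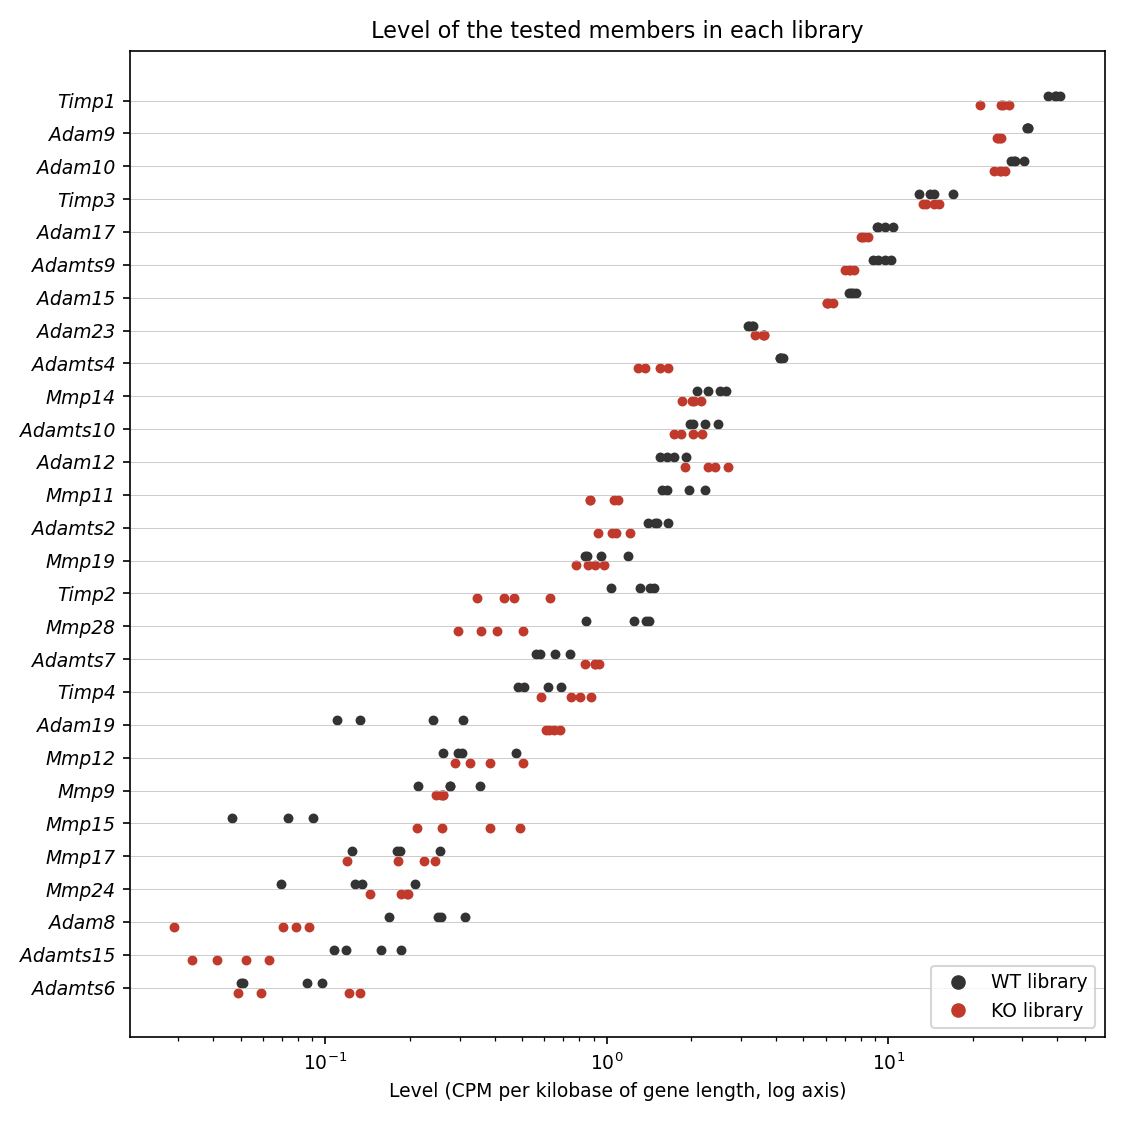
Level of each tested gene in each library, in CPM per kilobase of gene length on a log axis, in the order of the mean over all libraries. WT points are black and KO points red, and Mmp15 in WT library 3 is not drawn because its count was 0. Adamts4, Timp2, Mmp28, Adam8 and Adamts15 show KO points to the left of all WT points, and Adam19 and Mmp15 to the right.

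Summed over a family, the level per kilobase was lower in every KO library than in any WT library for all 4 families. The ADAM sum was 81.3 to 84.4 in WT and 69.9 to 72.6 CPM per kilobase in KO libraries, and the ADAMTS sum 17.9 to 19.2 and 12.7 to 13.7. The MMP sum was 7.56 to 9.04 in WT and 5.97 to 6.45 CPM per kilobase in KO libraries, and the TIMP sum 54.3 to 56.9 and 37.0 to 42.1. These sums are led by a few genes and are given as a description. Without division by gene length the TIMP sums overlapped, with 149 to 180 CPM in WT against 137 to 153 CPM in KO libraries, because Timp3, which was not called, then takes most of the sum. The TIMP sum per kilobase was 0.494 to 0.522 of the protease sum in WT and 0.411 to 0.472 in KO libraries.

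**Figure D3:**
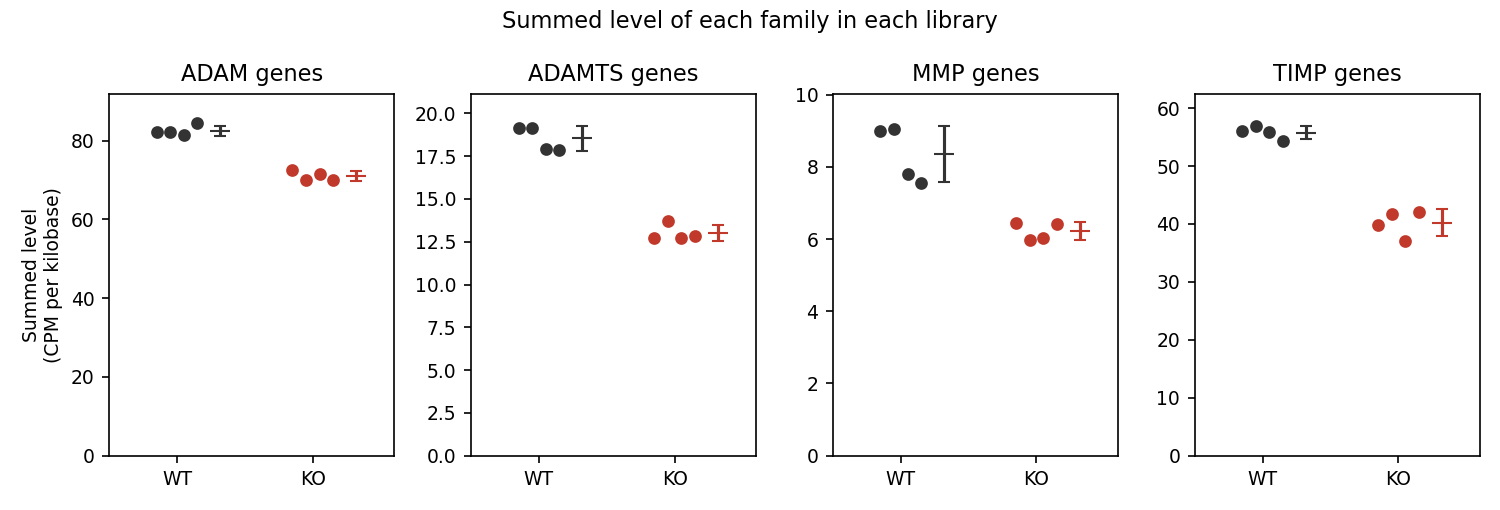
Summed level of the ADAM, ADAMTS, MMP and TIMP genes in each library, in CPM per kilobase of gene length, with the mean and SD of 4 libraries beside the points. KO libraries lie below the WT libraries in each panel, and the KO mean was 0.861 of the WT mean for ADAM, 0.701 for ADAMTS, 0.744 for MMP and 0.720 for TIMP genes.

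Among the inhibitors Timp1 and Timp2 fell, while Timp3 and Timp4 were not called. Timp1, a secreted inhibitor of most MMPs, lies on chromosome X (20870166 to 20874735 in GRCm38). It had 32.9, 36.4, 35.2 and 34.9 CPM across WT libraries 1 to 4, against 22.4, 23.9, 18.8 and 22.8 CPM across KO libraries 1 to 4. Every KO library lay below every WT library. The mean fell from 34.9 ± 1.44 to 22.0 ± 2.20 CPM (SD, n = 4), a log2 fold change of -0.67 (adjusted p = 3.07e-06, SE 0.0756). Timp2, which blocks MMPs and also takes part in the activation of pro-MMP2 by MMP14, lies on chromosome 11. It had 5.57, 5.10, 4.04 and 5.74 CPM in WT against 1.68, 1.35, 2.45 and 1.83 CPM in KO libraries, again without overlap. Its log2 fold change was -1.47 (adjusted p = 1.89e-05, SE 0.198), the fold change of largest size among the TIMPs.
Timp3, the inhibitor that binds the matrix and acts on ADAM and ADAMTS proteases as well, had 139, 115, 118 and 105 CPM in WT against 109, 111, 119 and 124 CPM in KO libraries. These ranges overlapped, and the log2 fold change of -0.05 had a 95% interval from -0.20 to 0.11 (adjusted p = 0.656). Timp4 had 2.85 to 4.04 CPM in WT against 3.43 to 5.19 CPM in KO libraries, with a log2 fold change of 0.38 and a 95% interval from 0.01 to 0.76 (adjusted p = 0.0955). It was called higher without KO library 3 (0.49, adjusted p = 0.0400). The 0 TIMP genes that rose by edgeR compare with 1 at an unadjusted p below 0.05, 0 with DESeq2 and 0 with limma voom. Timp1 made up 66.1 to 72.4% of the summed TIMP level per kilobase in WT and 57.3 to 64.5% in KO libraries, and Timp3 23.7 to 30.4% and 32.6 to 39.5%. Timp1, Timp3 and Timp4 each overlap a synapsin gene (Syn1, Syn3 and Syn2) on the opposite strand, and Syn1 was at 2.20 CPM in WT against 2.23 CPM in KO cells.
The 250 bases before the start of both TIMP genes that fell are shown here, since they are the inhibitors whose level changed. The sequences are RefSeq's for GRCm38.p6, chrX:20869916-20870165 on the + strand and chr11:118355412-118355661 on the - strand, each printed 5′ to 3′ along the gene. Neither holds the letters of the AP-1 motif TGACTCA (or TGAGTCA on the other strand), the cAMP response element TGACGTCA or the SF-1 motif CAAGGTCA (or TGACCTTG), so no letters are in capitals.
Timp1: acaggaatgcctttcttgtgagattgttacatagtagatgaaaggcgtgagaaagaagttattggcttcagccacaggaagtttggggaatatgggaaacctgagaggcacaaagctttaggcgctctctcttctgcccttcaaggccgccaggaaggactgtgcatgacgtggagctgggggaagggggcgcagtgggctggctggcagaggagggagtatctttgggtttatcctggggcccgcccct
Timp2: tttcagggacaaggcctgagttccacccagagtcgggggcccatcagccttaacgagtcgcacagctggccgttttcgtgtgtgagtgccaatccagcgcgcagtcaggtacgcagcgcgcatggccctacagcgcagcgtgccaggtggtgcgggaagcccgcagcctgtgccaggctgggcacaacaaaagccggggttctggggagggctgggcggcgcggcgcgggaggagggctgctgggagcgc

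Of the 9 ADAM genes grouped as sheddases of somatic cells 7 were tested, and 2 rose and 5 fell. Adam19 (meltrin beta), which cuts neuregulin precursors and acts in heart development, lies on chromosome 11 (46055992 to 46147343). It had 1.71, 2.19, 0.782 and 0.946 CPM in WT libraries against 4.33, 4.85, 4.63 and 4.45 CPM in KO libraries. The lowest KO library lay above the highest WT library, and WT libraries 3 and 4 were the lowest. The mean rose from 1.41 ± 0.660 to 4.57 ± 0.227 CPM (SD, n = 4), a log2 fold change of 1.69 (adjusted p = 3.77e-05, SE 0.244).
Adam12 (meltrin alpha), which can release heparin-binding EGF, had 16.4, 20.2, 18.3 and 17.3 CPM in WT against 28.6, 25.7, 24.3 and 20.1 CPM in KO libraries. KO library 4 lay within the WT range, and the log2 fold change of 0.45 was under the limit of 0.5 (adjusted p = 0.00181, SE 0.101). It was past that limit without WT library 2 (0.51) and without KO library 4 (0.54). Adam8, a sheddase of immune and tumour cells, fell by 1.85 on the log2 scale (adjusted p = 6.43e-04, SE 0.363). It was at 0.782 to 1.46 CPM in WT against 0.135 to 0.405 CPM in KO libraries, which did not overlap.
The more abundant ADAM genes had fold changes closer to 0. Adam9, a sheddase that also binds integrins, had 128 to 130 CPM in every WT and 100.4 to 104 CPM in every KO library, a log2 fold change of -0.33 (adjusted p = 1.47e-05, SE 0.0439). Adam10, the main sheddase of Notch and of amyloid precursor protein, had 134, 138, 139 and 149 CPM in WT against 128, 117, 123 and 124 CPM in KO libraries. Its groups did not overlap, and the log2 fold change was -0.18 (adjusted p = 0.00785, SE 0.0502). Adam17, which releases TNF and many EGF family ligands, had 65.4 to 74.3 CPM in WT against 57.2 to 60.9 CPM in KO libraries, a log2 fold change of -0.23 (adjusted p = 0.00329). Centred on the median of chromosome 12 the value was -0.14 and the call was lost (adjusted p = 0.0521). Adam15 had 44.7 to 47.1 CPM in WT against 37.2 to 39.2 CPM in KO libraries (-0.27, adjusted p = 6.56e-04), and centring on the median of chromosome 3 left -0.05 (adjusted p = 0.484).
Adam23, a catalytically inactive ADAM known as a receptor for LGI proteins in neurons, had 58.9, 59.3, 57.5 and 56.7 CPM in WT against 64.4, 64.6, 64.7 and 60.3 CPM in KO libraries. The groups did not overlap, but the log2 fold change of 0.13 was not called (95% interval 0.02 to 0.24, adjusted p = 0.0541), and it was called without KO library 4 (adjusted p = 0.0374). Adam22 had 24 reads over the WT and 10 over the KO libraries and was not tested. The ADAMs of the germ line, with others that fit no class, are 21 genes, of which 13 were at 0 in all libraries and none was tested. The most counted of them was Adam1a, a fertilin subunit in mouse, with 29 reads in WT and 19 in KO cells. Of 9 germ cell markers 2 had enough counts to be tested, Kit at 119 CPM in WT against 117 CPM in KO cells and Ddx4 at 2.82 against 3.78 CPM. The others had hardly any reads. Dazl and Prm2 had 0 reads in WT and 2 in KO cells, Prm1 and Acrv1 1 and 0, and Sycp3 5 and 6, while Zpbp and Tnp1 were at 0.
Adam19 has 3 annotated starts in RefSeq, and the window before the start nearest to that of the count table (chr11:46055734-46055983 in GRCm38.p6, + strand) holds the AP-1 letters 131 to 125 bases before it, in capitals. It is shown because Adam19 is the only gene called in KO cells whose 250 bases before a start hold that motif, among the 13 called genes with a RefSeq window. The other starts have no match.
Adam19: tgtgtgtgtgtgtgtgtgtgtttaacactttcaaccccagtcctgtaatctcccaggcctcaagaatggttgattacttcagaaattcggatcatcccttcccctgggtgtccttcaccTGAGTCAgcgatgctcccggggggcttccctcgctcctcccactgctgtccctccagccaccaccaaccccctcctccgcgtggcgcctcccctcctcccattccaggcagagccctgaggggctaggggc

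Among the ADAMTS genes the members that cut aggrecan and versican (the hyalectan class) fell in all 3 tested cases. By edgeR 0 of these 3 rose, and 0 did at an unadjusted p below 0.05, with DESeq2 or with limma voom. Adamts4, aggrecanase-1, lies on chromosome 1 (171250421 to 171260637). It had 19.9, 20.3, 20.1 and 19.8 CPM in WT libraries against 6.59, 7.95, 7.46 and 6.21 CPM in KO libraries. The WT libraries lay within 1 CPM of each other and far above the KO libraries. The mean fell from 20.03 ± 0.239 to 7.05 ± 0.795 CPM (SD, n = 4), a log2 fold change of -1.51 (SE 0.0942) and the smallest adjusted p of the 28 genes (3.82e-09). Adamts4 took 21.6 to 23.3% of the summed ADAMTS level per kilobase in WT and 10.1 to 12.2% in KO libraries.
Adamts15 had 1.22, 1.92, 1.11 and 1.64 CPM in WT against 0.347, 0.539, 0.653 and 0.427 CPM in KO libraries, a log2 fold change of -1.56 (adjusted p = 8.00e-04, SE 0.314). Adamts9, the most abundant ADAMTS gene, had 147, 154, 139 and 133 CPM in WT against 110, 114, 105 and 111 CPM in KO libraries. Its log2 fold change was -0.39 (adjusted p = 2.61e-05, SE 0.0536), and its groups did not overlap. Adamts1 was not tested because its counts were low, with 12, 7, 4 and 13 reads in WT and 2, 1, 0 and 1 reads in KO libraries. Without the filter on low counts its log2 fold change was -3.09 (adjusted p = 2.78e-04). Adamts5 (aggrecanase-2) had 18 reads in WT and 27 in KO cells, and Adamts20 24 and 16, both too few to test.
Adamts2, the main procollagen N-propeptidase, had 14.1, 15.4, 13.8 and 13.1 CPM in WT against 8.67, 10.1, 11.3 and 9.75 CPM in KO libraries. The groups did not overlap, and its log2 fold change of -0.497 lay just under the limit of 0.5. Adamts7, which cuts cartilage oligomeric matrix protein, lay just past it with 0.503 (adjusted p = 0.00826, SE 0.139). It had 4.65, 3.65, 3.52 and 4.10 CPM in WT against 5.72, 5.26, 5.88 and 5.73 CPM in KO libraries, and every KO library lay above every WT library. Its fold change was under the limit without WT library 2 (0.47), WT library 3 (0.45) or KO library 3 (0.48), and stayed called. Adamts10, a protease tied to fibrillin microfibrils, had 11.9 ± 1.26 CPM in WT against 10.6 ± 1.10 CPM in KO cells and was not called (-0.17, 95% interval -0.40 to 0.06). Adamts7 overlaps Tbc1d2b on the other strand, which was at 35.7 CPM in WT against 35.5 CPM in KO cells. The sources used here do not say whether reads were counted by strand.

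Among the MMPs, Mmp15 rose while Mmp28, Mmp11 and Mmp14 fell, and 5 tested genes were not called. Mmp15 (MT2-MMP), a membrane-anchored protease that can activate pro-MMP2, lies on chromosome 8 (95352268 to 95375080). It had 8, 6, 0 and 4 reads in WT libraries and 46, 17, 38 and 23 reads in KO libraries, or 0.489, 0.398, 0 and 0.252 CPM against 2.66, 1.15, 2.07 and 1.40 CPM. The groups did not overlap, although all 8 values were low. The log2 fold change was 2.65 with a 95% interval from 1.66 to 3.64 (adjusted p = 2.56e-04), the largest rise among the 28 genes. Mmp14 (MT1-MMP), the main membrane collagenase, was the most abundant MMP with 13.7, 15.1, 12.5 and 15.8 CPM in WT against 12.1, 12.9, 11.1 and 12.0 CPM in KO libraries. These ranges overlapped, and the log2 fold change of -0.25 had an adjusted p of 0.0485. That call was lost when any library other than WT library 3 was left out (adjusted p from 0.0507 without WT library 1 to 0.142 without WT library 4), and with DESeq2 (0.0971).
The promoter of Mmp15 is shown because its gene had the largest rise. The 250 bases before its RefSeq start are chr8:95352046-95352295 in GRCm38.p6 on the + strand. They hold none of the 3 motifs.
Mmp15: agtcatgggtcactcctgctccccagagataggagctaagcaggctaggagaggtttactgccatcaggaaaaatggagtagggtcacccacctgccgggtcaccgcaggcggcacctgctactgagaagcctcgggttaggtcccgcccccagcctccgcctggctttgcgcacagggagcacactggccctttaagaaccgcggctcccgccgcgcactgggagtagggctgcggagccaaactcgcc
Mmp28 (epilysin), an MMP known from keratinocytes and from the testis, had 5.32, 4.84, 5.48 and 3.28 CPM in WT against 1.39, 1.95, 1.14 and 1.58 CPM in KO libraries. Every KO library lay below every WT library. The log2 fold change was -1.65 (adjusted p = 1.59e-05, SE 0.218). 1700020L24Rik, which overlaps it on the other strand, was at 1.04 CPM in WT against 0.431 CPM in KO cells. Mmp11 (stromelysin-3), which unlike most MMPs leaves the Golgi already cut by furin, had 5.45, 6.23, 4.37 and 4.54 CPM in WT against 2.43, 2.43, 2.94 and 3.05 CPM in KO libraries. It fell by 0.92 on the log2 scale (adjusted p = 4.01e-04, SE 0.170). Chchd10, on the other strand of the same stretch, was at 83.8 CPM in WT against 81.0 CPM in KO cells.
Among the genes not called, Mmp19 had a log2 fold change of -0.12 (95% interval -0.49 to 0.25) and Mmp12, macrophage elastase, one of 0.17 (-0.32 to 0.67). Mmp9, gelatinase B, was at 0.993 ± 0.206 CPM in WT against 0.910 ± 0.0231 CPM in KO cells (-0.12, 95% interval -0.69 to 0.45). Mmp17 (0.05) and Mmp24 (0.41, 95% interval -0.31 to 1.13), both membrane-type MMPs, had wide intervals as well. Mmp2, gelatinase A, had 28 reads in WT and 11 in KO cells and was not tested. Of the 3 collagenases none was tested, and Mmp13 alone had reads, 8 in WT and 14 in KO cells.

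**Figure D4:**
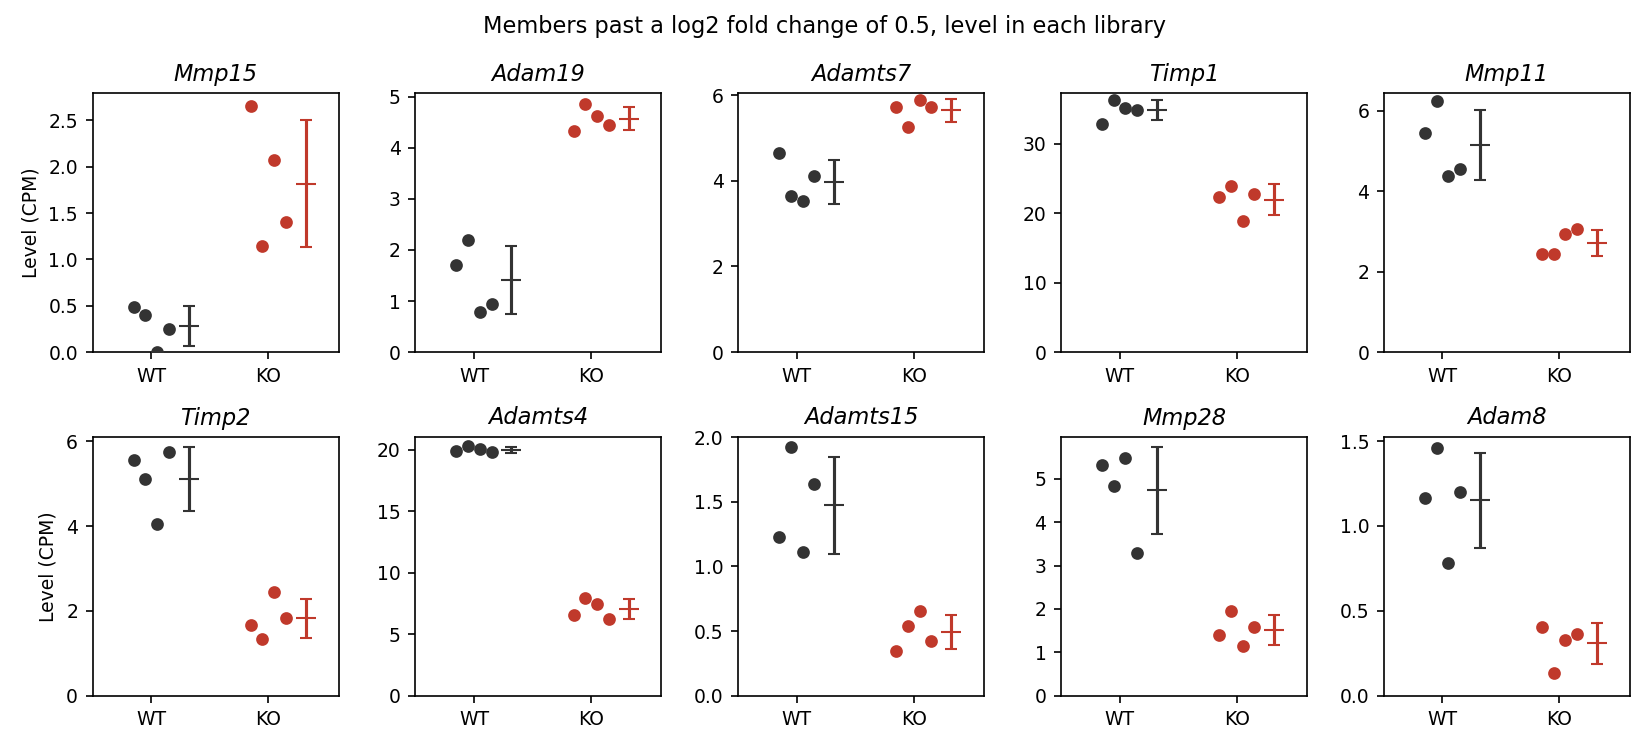
Level in CPM in each library for the 10 genes called with a log2 fold change past 0.5, with the mean and SD of 4 libraries beside the points. Mmp15, Adam19 and Adamts7 are higher and the other 7 genes lower in KO cells, and in each panel no KO library lies within the WT range.

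A run of 9 MMP genes lies together on chromosome 9 (7272514 to 7699585, or 427 kb, in GRCm38), and it holds the collagenase, stromelysin and elastase genes that are known as targets of AP-1, the Fos and Jun dimer. In these cells the run had few reads, 227 reads in all WT and 247 in all KO libraries, of which Mmp12 alone gave 151 and 183. Mmp12 was the only tested gene of the 9, and Mmp1b, Mmp8, Mmp20 and Mmp7 were at 0. Mmp10 had 33 reads in WT and 26 in KO cells, and Mmp3 23 and 18. The AP-1 letters TGACTCA, searched on both strands in the 250 bases before each RefSeq start, were found in 6 of the 9 genes. They were found in 2 of the other 39 protease and inhibitor genes with a window, Adam19 and Adam29, and in 5.16% of the 27025 genes with a window. The cAMP response element was found in 0 of these 48 genes and in 1.77% of all genes, and the SF-1 motif in 0 and in 1.51%. A match describes letters and not a binding site.
The stretch from 100 to 21 bases before the start is shown for the 6 genes with a match, because they show the motif and its neighbouring bases. The capitals mark the AP-1 letters. The stretches are chr9:7272414-7272493 (+) for Mmp13, chr9:7347274-7347353 (+) for Mmp12, chr9:7388047-7388126 (-) for Mmp1b, chr9:7445722-7445801 (+) for Mmp3, chr9:7502242-7502321 (+) for Mmp10 and chr9:7691990-7692069 (+) for Mmp7, from RefSeq in GRCm38.p6.
Mmp13: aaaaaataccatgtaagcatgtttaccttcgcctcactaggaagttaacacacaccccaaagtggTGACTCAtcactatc
Mmp12: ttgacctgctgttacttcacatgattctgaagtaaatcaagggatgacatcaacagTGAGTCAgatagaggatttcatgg
Mmp1b: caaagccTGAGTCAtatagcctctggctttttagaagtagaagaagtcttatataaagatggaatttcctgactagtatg
Mmp3: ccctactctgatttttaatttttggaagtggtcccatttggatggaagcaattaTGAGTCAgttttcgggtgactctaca
Mmp10: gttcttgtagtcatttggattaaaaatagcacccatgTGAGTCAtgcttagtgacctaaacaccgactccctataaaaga
Mmp7: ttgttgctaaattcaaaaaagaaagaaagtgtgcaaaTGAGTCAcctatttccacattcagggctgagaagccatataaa
The motif ended 29 bases before the start in Mmp13, 38 in Mmp12, 40 in Mmp3, 57 in Mmp10 and Mmp7, and 87 in Mmp1b. Mmp12 and Mmp7 each have another annotated start with no match. For Mmp12 the start without a match (window chr9:7344147-7344396) is the nearest to that of the count table (7344381). The match of Mmp12 lies before a start farther inside the counted gene. A list of AP-1 and ETS factors also holds Runx genes, and of its 13 tested genes 1 rose and 8 fell. These are 7.69% and 61.5%, against 21.7% and 21.1% of all tested genes. The gene that rose was Runx2 (0.47), which is neither an AP-1 nor an ETS factor. Fosl1 (Fra-1), which lies on chromosome 19, fell from 102 ± 13.3 to 38.0 ± 6.46 CPM (SD, n = 4), a log2 fold change of -1.42 (SE 0.109). Ets1 (-1.82), Ets2 (-0.60) and Fosb (-0.56) fell as well, while Jun (-0.10) and Fos (-0.10) were not called. Without WT library 1, 2 of the 13 were called higher.

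The genes that act with these proteases moved in both directions, and so did the tested genes as a whole. Of all tested genes 21.7% rose and 21.1% fell, and no list below was tested as a set. Among 9 tested activators 2 rose (22.2%, near the share of all tested genes), 3 fell (33.3%) and 4 were not called. Plat, tissue plasminogen activator, fell by 1.88 on the log2 scale (SE 0.455) at a low level, with 73 reads in WT and 21 in KO cells. Plaur, the urokinase receptor, fell by 0.72, from 65.6 to 39.8 CPM. Plau, urokinase itself, fell from 2027 to 1629 CPM (-0.32). Pcsk6 and Pcsk5, convertases that cut precursors, rose by 0.94 and 0.82, and Pcsk5, on chromosome 19, was at 0.31 after centring. A list of other inhibitors also holds Pcolce and Pcolce2, which enhance procollagen processing, and of its 6 tested genes 0 rose, 3 fell and 3 were not called. Pcolce2 fell by 0.52 on the log2 scale, and Cst3 (cystatin C), an inhibitor of cysteine proteases, by 0.15, a call that was lost after centring (adjusted p = 0.0638). By edgeR at an unadjusted p below 0.05, 1 of the 6 rose, and with DESeq2 or limma voom 0 did.
Of 11 tested partners of ADAM10 and ADAM17, 3 rose and 5 fell. Rhbdf2 (iRhom2), which carries ADAM17 to the cell surface, fell by 0.54 (SE 0.0643), and Rhbdf1 was not called. Frmd8, which stabilizes iRhoms, rose by 0.61, but lies on chromosome 19 and was at 0.10 after centring, where 1 of the 11 partners was called higher. Tspan15 and Tspan5, tetraspanins that steer ADAM10, fell by 0.28 and 0.47, and Tspan5, on chromosome 3, was at -0.24 after centring. Tspan14 rose by 0.18, a call that was lost after centring (0.09, adjusted p = 0.297).
Among the proteins that ADAMs release, 2 of 4 tested EGF family ligands fell and 0 rose by edgeR, at an unadjusted p below 0.05, with DESeq2 or with limma voom. Btc (betacellulin) fell by 1.46 (SE 0.393) from 1.30 ± 0.201 to 0.470 ± 0.327 CPM, and Hbegf by 0.24. Without KO library 1 the count that fell was 1. Of 19 other shed membrane proteins 3 rose, 7 fell and 9 were not called. Cx3cl1, a membrane-bound chemokine, fell by 1.17, Sdc4 (syndecan-4) by 0.98 and F11r, a junction protein, by 0.85, while Efna5 rose by 0.87. Centred on chromosome medians, 5 of the 19 were called higher.
Of 14 tested matrix substrates 0 rose, 6 fell and 8 were not called. Acan and Vcan, the proteoglycans cut by the hyalectan class, were not called (-0.17 and -0.15), although Acan was called lower after centring (adjusted p = 0.0323). Col1a1 (-4.73), Thbs1 (-4.24), Spp1 (-3.10) and Col3a1 (-2.89) fell, and so did Eln and Hspg2. Levels differed widely, with Col1a1 at 10.5 CPM in WT against 0.387 CPM in KO cells and Col3a1 at 1.49 against 0.198 CPM. Hspg2 was at 1515 ± 335 against 1058 ± 140 CPM (SD, n = 4). Its groups overlapped, with WT library 4 (1072 CPM) below KO libraries 2 (1144 CPM) and 4 (1172 CPM). The abundant laminin genes Lamc1 (803 against 749 CPM), Lamb1 (320 against 325) and Lama1 (317 against 345) were not called. At an unadjusted p below 0.05, 1 of the 14 rose, and 0 did with DESeq2 or limma voom. Without WT library 1, WT library 2 or KO library 1, or after centring on chromosome medians, 1 was called higher. The 3 tested ADAMTS-like genes, which resemble ADAMTS proteases without the catalytic part, held 1 that fell, Adamtsl5 (-0.58), and 0 that rose by edgeR, at an unadjusted p below 0.05, with DESeq2 or limma voom. Of 7 tested integrins bound by ADAMs 4 fell and 0 rose by the same tests, led by Itga6 (-2.34) and Itgb3 (-2.31). Among 7 tested astacin and related metalloproteinases 2 rose and 2 fell (28.6% each, against 21.7% and 21.1% of all tested genes). Tll2 was at 1.23 (0.72 after centring on chromosome 19). A single one of the 7 fell without WT library 1, WT library 3, KO library 1 or KO library 2.

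**Figure D5:**
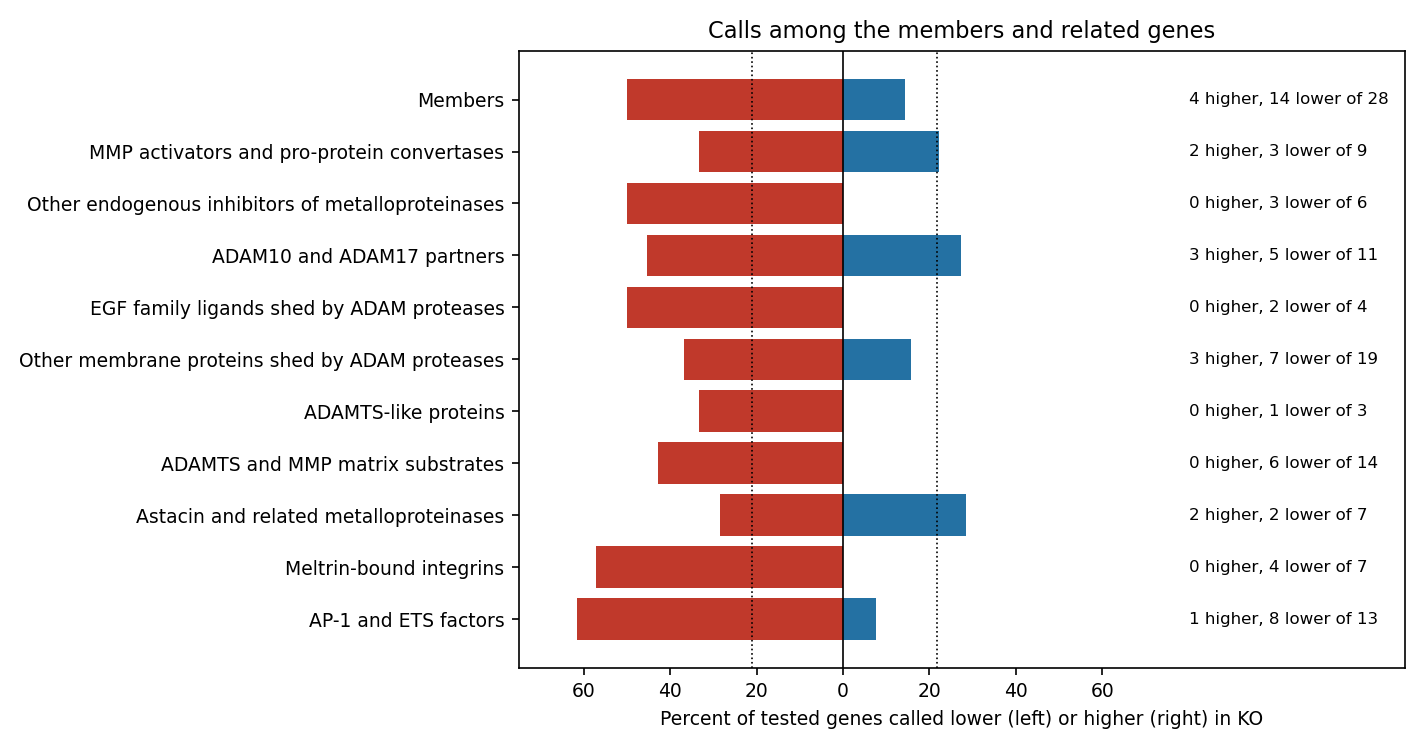
Percent of tested genes called lower (red, left) or higher (blue, right) in KO cells among the 28 protease and inhibitor genes (the row of members) and in 10 lists of related genes (that of other inhibitors includes enhancers of procollagen processing), with dotted lines at 21.1% and 21.7%, the shares of all tested genes. The row of the proteases and inhibitors holds 4 higher and 14 lower genes of 28, and 5 lists hold 0 higher genes. The list of AP-1 and ETS factors also holds Runx2, the gene of that list called higher.

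Markers of other cell types, some of which make these proteases, were counted in the same libraries. Of 3 tested macrophage markers 2 fell and 0 rose, and the summed list was at 20.5 to 26.5 CPM in WT against 12.3 to 15.7 CPM in KO libraries. The defining genes Ptprc, Adgre1, Lyz2 and C1qa were at 0 in all 8 libraries. Of 2 tested endothelial markers 1 fell and 0 rose, Cdh5 from 200 ± 13.0 to 108 ± 7.52 CPM, with a summed list of 182 to 210 CPM in WT against 100.3 to 120 CPM in KO libraries, while Vwf and Emcn were at 0. Both tested markers of myoid cells and fibroblasts fell, Col1a1 and Cnn1 (-2.67), with 20.4 to 26.1 CPM in WT against 2.54 to 3.44 CPM in KO libraries for the list, while Dcn and Lum were at 0. For these 3 lists 0 rose likewise at an unadjusted p below 0.05, with DESeq2 and with limma voom. Of 5 tested Sertoli markers 1 rose, Rhox5 (0.94), from 167 to 321 CPM. Sox9 (-0.02), Tjp1 (-0.02), Gata1 (-0.004) and Dhh (0.16) were not called. The summed list, with Rhox5 in it, was at 347 to 371 CPM in WT against 495 to 530 CPM in KO libraries. Of 2 tested germ cell markers 0 were called, also at an unadjusted p below 0.05, with DESeq2 or limma voom, and 1 was called higher without WT library 1. All libraries came from the MA-10 line, and KO cells were grown from single cells. The marker values are therefore given as RNA levels in a cell line and not as counts of cells. Whether other cells had a part in the values above was not tested.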

How the data were processed

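Poly-A RNA of 8 libraries was sequenced, and the authors deposited raw counts of reads per gene, which are whole and sum to unequal totals. HISAT2 2.0.5 (alignment) and featureCounts 1.5.0-p3 (counting) come from the submitters' processing notes. Build, use of strand and treatment of multiply mapped reads were not stated in the sources used here, and the table's positions are those of GRCm38. The fit used edgeR 4.0.16 in R 4.3.3: filterByExpr (minimum count 10, minimum total 15), TMM, and the quasi-likelihood F test with genotype as the only term, adjusted by Benjamini-Hochberg over all 13185 tested genes. Levels are CPM after TMM, divided by gene length per 1000 bases where stated. No row was a total or unassigned read row. Within groups no library was a copy of another (chi-square of 3.23 to 13.5 per degree of freedom).
Named genes were every tested member past a log2 fold change of 0.5, the TIMP genes, the 10 highest per kilobase, Mttp, and up to 4 genes past the limit from each list of related genes or markers. Other genes are given as examples and were picked with their values known. The rule for the members uses gene names only, but the rule and the lists were chosen with earlier results of these data known. Promoter sequences are RefSeq's, with windows for 48 of 78 genes (18 of the 28 tested). The alternatives were DESeq2 1.42.0 (size factors, Wald test), total counts, limma 3.58.1 voom, other filters and limits, a replicate block, leaving out each library and centring on chromosome medians. The fit was tested on simulated data. Figures used Python 3.11.15 and matplotlib 3.10.9. Results for some named genes are not reported here, while counts over lists include them.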

Additional observations from a re-analysis of the deposited data

Results flagged for a closer look

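Adam23 had 60.3 CPM in KO library 4 and 64.4 to 64.7 CPM in the other 3 KO libraries, which sets that library apart from its group. Chance alone sets a library apart in about 1 in 20 groups of this size, and this was 1 of 38 groups examined.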

How the results depend on the processing

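The counts of protease and inhibitor genes called in KO cells (4 higher, 14 lower, 3 and 7 past the limit) kept their directions under the alternatives run. With at least 10 counts in every library, which left 23 of the 28 genes and dropped Mmp15, Adam8, Adamts15, Mmp24 and Adamts6, 1 gene was higher past the limit (Adam19), as Adamts7 came to 0.49. Leaving out each library in turn gave 4 to 5 higher and 13 to 14 lower genes, and 2 to 4 higher and 7 to 8 lower genes past the limit. DESeq2 and the fit without a filter each gave 4 and 14, the latter count without Mmp14 but with Adamts1, which is outside the 28 genes. Limma voom gave 4 and 13, DESeq2 size factors 5 and 13, and centring on chromosome medians 5 and 12. A limit of 1 left 2 higher and 5 lower genes, and a test against the limit of 0.5 (glmTreat) 2 and 6. With the replicate block 4 genes were higher and 13 lower, and 3 and 8 past the limit. Libraries of the same number correlated in their deviations by -0.15, 0.04, 0.04 and -0.15, so the number does not pair them. The largest correlations were those of WT library 1 with KO library 4 (0.18) and WT library 4 with KO library 1 (0.17). Where these shared deviations come from was not tested, and the block does not take them out. Mmp14 was the only tested member whose call the block changed (adjusted p = 0.0640). Over the alternatives the 28 genes kept their call and direction in 425 of the values computed, lost it in 14 and gained it in 4. Of the 18 calls, those lost under some alternative were Mmp14, Adam15 and Adam17, and the genes gained were Adam23 and Timp4. The adjusted p of Adam23 with DESeq2 size factors was 0.0472 and that of Timp4 after centring 0.0423. Depth limits the genes under about 1 CPM, where 29 genes with counts were not tested.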
